A study of Homo sapiens with 32 samples.

Results

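The background of the iCLIP procedure was read from the 3 Control libraries, made from human embryonic kidney cells that carried the FLAG construct alone and were taken through the same anti-FLAG immunoprecipitation as the tagged proteins. The members were all 3 libraries that the labels call Control, of 12 libraries in the series (8 of 32 lane runs). The other 9 libraries, 3 each of FLAG-tagged Alyref, Chtop and Nxf1, served here as a pooled reference. The labels name the cells FlipIn HEK293T, and their growth protocol and the study's methods name the tagged lines FlpIn-293, human embryonic kidney cells with a single genomic site for inserting a construct. They were grown in Blasticidin and Hygromycin. Tetracycline, left on the cells for 48 h, induced the tagged factors (5 ng/mL in the Nxf1 line, 10 ng/mL in the other lines), and no dose is given for the Control in the sources used here. Each construct was stably expressed from its own line, so a difference between lines and a difference between FLAG constructs cannot be told apart.

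iCLIP crosslinks proteins to RNA with ultraviolet light, purifies the complexes with an antibody, and reads where reverse transcription stopped, next to the crosslinked nucleotide. A random barcode on each cDNA lets copies made by PCR be counted once, and each remaining cDNA is called a tag. RNA that sticks to beads, antibody or gel gives tags without the protein of interest, and abundant non-coding RNAs such as ribosomal RNA (rRNA) and spliceosomal RNA are well-known sources of such signal. Uracil crosslinks more readily than the other bases, so tags of many procedures lie at uridines. RNA amount was not measured here, and more of an RNA and more tags per molecule of it cannot be told apart in these counts.

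Of the 11 bases chosen by their Control tags, 8 are shown, because most of the 11 lie in copies of rRNA. The bases b4, b7 and b9, which also resemble rRNA or its spacers, are not shown. Each sequence is 21 bases of the hg19 genome (GRCh37) read 5′ to 3′ on the tagged strand, written with T for U, and the capital marks the base to which the tags were assigned. The first 6 resemble 18S, 28S or 5.8S rRNA, and the last 2 do not resemble any of the abundant RNAs searched.
b2, chr2:133012617-133012637, minus strand, intron of ANKRD30BL, 18S: ccagtctttgGgtttttgggt
b8, chr16:33963644-33963664, plus strand, outside genes, 18S: aaagtctttgGgtttttaggt
b3, chr5:71146731-71146751, plus strand, outside genes, 28S: tagaaatttcTtccagtgcgg
b5, chr1:91853139-91853159, minus strand, intron of HFM1, 28S: aactcatcatTtccggggaca
b6, chr12:127650918-127650938, minus strand, outside genes, 28S: gaacgcctctTaagtcagaat
b10, chr16:33965529-33965549, plus strand, RNA5-8SP2, 5.8S: cgcaattgcaGcccgggttcc
b1, chr5:130851790-130851810, minus strand, intron of RAPGEF6: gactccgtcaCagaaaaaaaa
b11, chr16:6400432-6400452, plus strand, intron of RBFOX1: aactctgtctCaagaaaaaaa
The 18S-like windows b2 and b8 lie on different chromosomes and are equal at 18 of 21 bases. The windows b1 and b11, without resemblance to rRNA, are equal at 16 of 21 bases, and both end in a run of A soon after the tagged base.

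The 3 Control libraries differed in depth and in the position of their tags. Controls 1, 2 and 3 held 6998, 46384 and 36804 tags on the nuclear chromosomes, against 8105 to 630540 in the factor libraries. A gene with 0 tags could therefore hold up to 429, 64.7 and 81.5 CPM in Controls 1, 2 and 3 (tags scaled to a common library size, floor of 3 tags, counting error only). Control 1 stood apart in where uracil lay: U was most frequent 2 bases before the tagged base, in 62.1% of its tags, whereas it peaked at the tagged base in Control 2 (54.7%) and 1 base after it in Control 3 (52.6%). Nxf1 1 was the only factor library with the same shift, at 58.7%. The plot of uracil by distance shows these 3 profiles. Results below are given per library, and the principal ones also without the libraries or bases that stand apart.

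**Figure D1:**
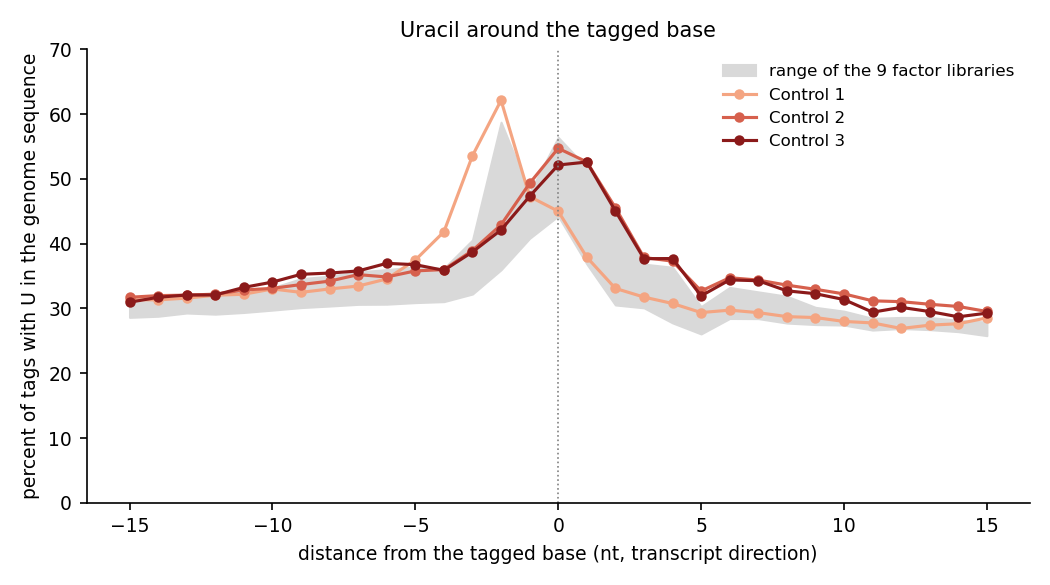
Percent of tags with U in the genome sequence (vertical axis) at each distance in nt from the tagged base (horizontal axis, dotted line at 0) for Controls 1, 2 and 3 (points and lines), with the range of the 9 factor libraries in grey. The Control 1 curve peaks at 62.1% 2 nt before the tagged base, while Controls 2 and 3 peak at 54.7% and 52.6%, at the base and 1 nt after it.

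Bases also recurred between libraries at a fixed distance. Alyref 2 held a tag exactly 2 nt upstream of 5277 Control 2 bases, more than the 3746 bases tagged in both at the same position. The same held for 862 Control 1 bases with Alyref 2, against 626 at the same position, and Nxf1 1 held a tag 3 nt downstream of 495 Control 3 bases, against 471 at the same position. Leaving out bases that recurred only in this way removed 537 bases of Control 1 (7.72%), 3637 of Control 2 (8.04%) and 411 of Control 3 (1.16%). Of the Control 2 bases removed, 33.3% lay in introns and 29.1% in coding sequence, against 58.5% and 6.01% of the other Control 2 bases. Between Control libraries no such shift was seen, and coincidences were most frequent at distance 0, with 345 bases for Controls 1 and 2, 291 for Controls 1 and 3 and 1591 for Controls 2 and 3. Pairs of factor libraries were shifted too. Chtop 1 held a tag 2 nt downstream of 6183 Alyref 3 bases, against 3988 at the same position. Nxf1 1 held a tag 3 nt downstream of 1045 Alyref 3, 937 Chtop 3 and 831 Nxf1 3 bases, against 861, 813 and 740 at the same position. The source of these recurrences was not tested.

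**Figure D2:**
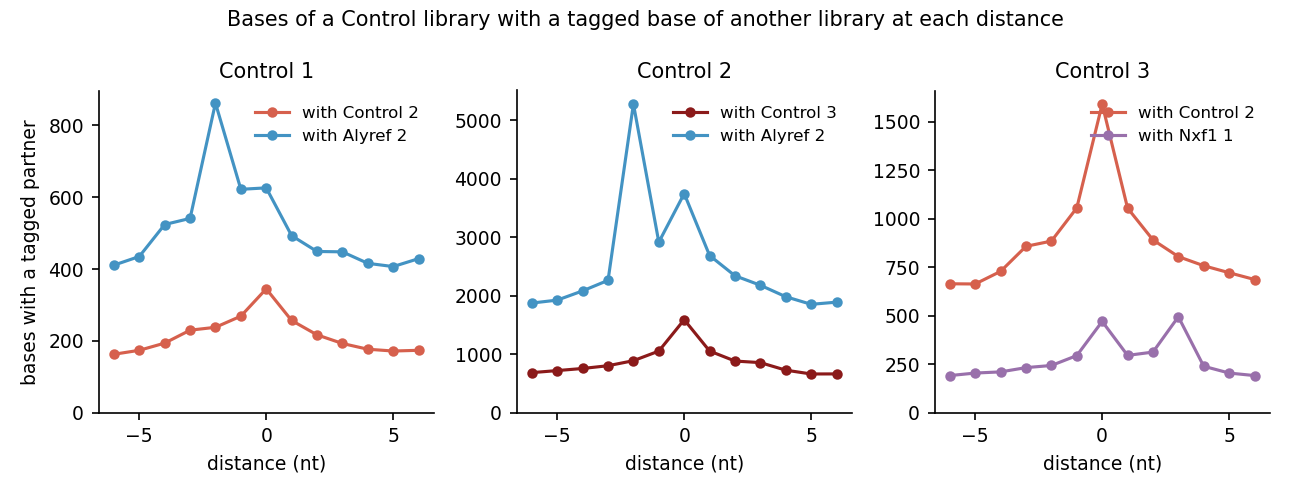
Number of tagged bases of each Control library (vertical axis, separate scale in each panel) for which the named other library has a tag at the given distance in nt (horizontal axis, negative is upstream). Coincidences between Control libraries peak at 0, while Controls 1 and 2 peak at 2 nt upstream with Alyref 2 (862 and 5277 bases) and Control 3 peaks at 3 nt downstream with Nxf1 1 (495 bases).

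Ribosomal RNA was the main repeated component of the background. Places on the nuclear chromosomes that resemble 28S, 18S or 5.8S rRNA or the spacers of their precursor (aligned over at least 50 nt, or 100 nt for spacers, at 80% identity or more) held 343 tags of Control 1, 2708 of Control 2 and 2323 of Control 3. These were 4.90%, 5.84% and 6.31% of the tags, a mean of 5.68% ± 0.718 (SD, n = 3). The 9 factor libraries ranged from 0.745% to 6.81%, with a mean of 3.01%, so the Control lay inside their range. The strand mattered: on the opposite strand of the same places the Control libraries held 0, 1 and 0 tags. Of the rRNA-like Control tags 58.1% lay outside genes on the strand, 28.2% in introns of genes that contain a copy, and 11.5% in annotated small RNA genes, so annotation alone would have filed most of them elsewhere. With 85% identity the mean share was 5.01% ± 0.625 (SD, n = 3).

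The shares of 18S-like and 28S-like places were close to each other. 18S-like places took 2.14%, 2.59% and 2.74% of tags in Controls 1, 2 and 3, and 28S-like places 1.50%, 2.39% and 2.69%. 5.8S-like places, which span only 7 loci, took 1.04%, 0.522% and 0.736%. Spacer-like places took 0.214%, 0.336% and 0.149%. All 4 kinds were present in each of the 3 libraries.

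The number of rRNA-like tags rose far less than library depth. Alyref 2, with 630540 tags in all, held 5824 rRNA-like tags, against 2708 in Control 2 at 46384. Libraries of like depth were alike in this respect: Control 1 (6998 tags) had 4.90% and Nxf1 1 (8105 tags) 6.81%, while Control 2 (46384 tags) had 5.84% and Chtop 1 (46955 tags) 4.79%. Since the Control libraries were among the shallowest, their higher mean share and their lower depth cannot be told apart. In the plot of rRNA-like tags against depth the points rise less than in proportion to the tags of a library.

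**Figure D3:**
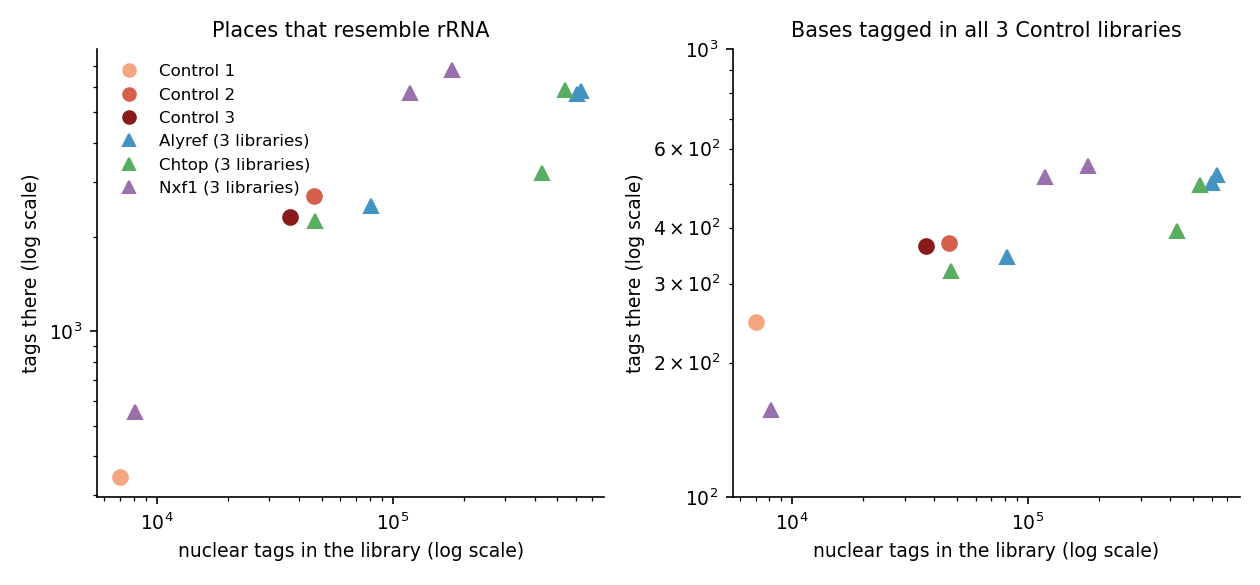
Tags at places that resemble rRNA (left) and at the 219 bases tagged in all 3 Control libraries (right) on the vertical axes, against nuclear tags per library on the horizontal axis, all on log scales, with 1 point per library (circles Control, triangles factors). Control 2 has 2708 rRNA-like tags at 46384 tags in all, and Alyref 2 has 5824 at 630540.

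Few single bases recurred in the background. Only 219 bases had a tag in all 3 Control libraries, 1570 had one in exactly 2, and 83798 in 1. The 219 shared bases held 246, 370 and 363 tags of Controls 1, 2 and 3, and 77.8% of these tags were rRNA-like and 9.30% resembled U1, U2, U4, U5 or U6 RNA. In bases seen in exactly 2 libraries the rRNA-like part was 51.9%, and in bases seen in 1 library 3.05%. The bases were not particular to the Control, since 127 to 207 of the 219 also had a tag in each factor library. Most tags stood alone, 98.9%, 95.8% and 93.7% of them in Controls 1, 2 and 3, and the most tags at a base were 4, 13 and 24.

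The tag numbers at the chosen bases that resemble rRNA varied between the Control libraries. The 18S-like base b2 had 1, 10 and 11 tags in Controls 1, 2 and 3, and the 28S-like base b3 had 2, 11 and 9. The 28S-like bases b5 and b6 each had 2, 13 and 2, highest in Control 2. The 5.8S-like base b10 had 3, 5 and 8 tags, close to its 5 to 13 in the factor libraries. The 28S-like base b4 had 1, 10 and 9, the spacer-like b7 had 4, 8 and 5, and the 5.8S-like b9 had 4, 6 and 5. Most of these rRNA-like bases reached higher numbers in the deep factor libraries, up to 28 at b6.

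The bases b1 and b11, which precede a run of A, differed by replicate number. Base b1 in RAPGEF6, a Rap guanine nucleotide exchange factor, had 0, 1 and 24 tags in Controls 1, 2 and 3, 17 to 20 in replicate 3 of the factors and 0 to 10 in the other factor libraries. Base b11 in RBFOX1, a splicing regulator gene, had 0, 0 and 21 Control tags, 15 to 19 in replicate 3 of the factors and 0 to 6 in the others. The sequences around b1 and b11 are repetitive, since their 14-base words occur a median of 1423 and 17701 times in the genome. Both bases were thus high in all 4 libraries that bear the number 3, Control and factors alike, and lower in the rest. The replicate 1 libraries, which share HiSeq lanes 7 and 8 with replicate 3, had 0 to 7 tags at b1 and 0 to 5 at b11.

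**Figure D4:**
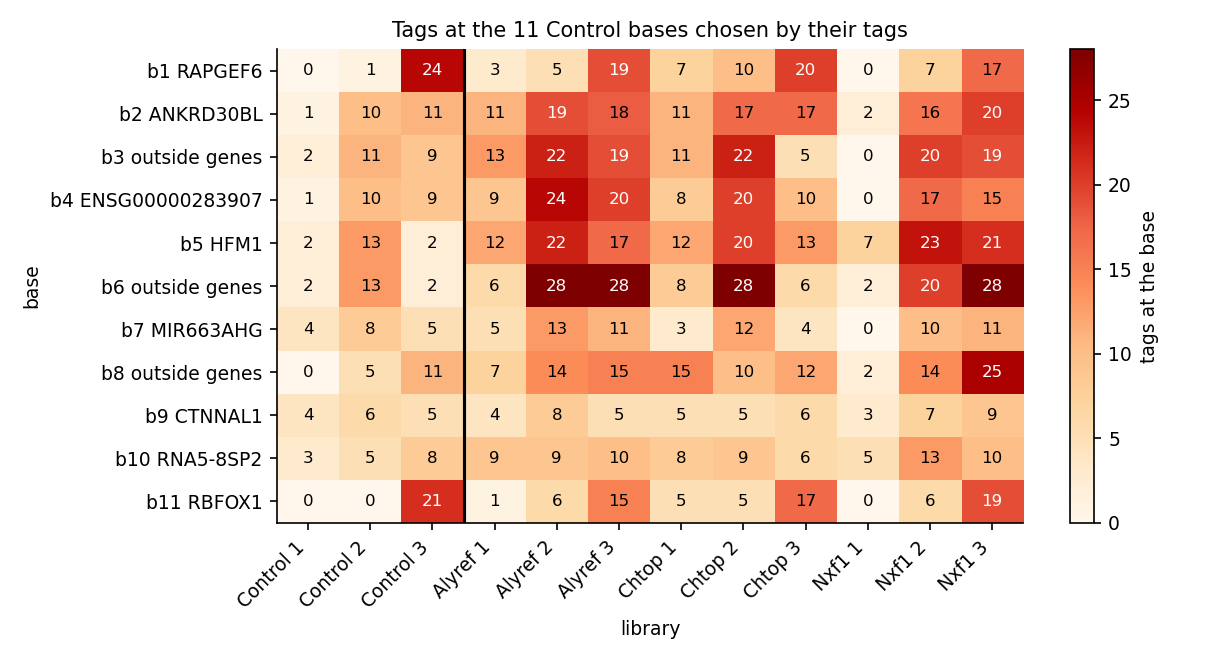
Tags (number and colour) at the 11 Control bases chosen by their tags, b1 to b11 with the gene that holds them (rows), in the 12 libraries (columns, the black line divides Control from factor libraries). Bases b1 and b11 have 24 and 21 tags in Control 3 and 15 to 20 in replicate 3 of the factors, while the rRNA-like bases b2 to b6 have the most tags in deep factor libraries.

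Other bases were sought with tags in Control 3 and none in the other Controls, a rule that b1 itself does not meet. Besides b11, 19 bases had 5 or more tags in Control 3 and none in the other Controls, with 111 Control 3 tags in all. Of these 19, 14 had no tag in any factor library and 3 had a tag in a replicate 3 factor library. At those 3 the replicate 3 libraries of Alyref, Chtop and Nxf1 had 24, 27 and 34 tags, while over all 19 bases the replicate 2 libraries had 6, 11 and 9 and the replicate 1 libraries 8, 4 and 0. The 18 bases with 5 or more tags in Control 2 alone had 104 Control 2 tags, and the factor libraries there had 18, 10 and 11 in replicate 2 and 17, 9 and 16 in replicate 3, so that replicate 2 did not stand out. These bases were chosen by their Control values, and the factor values are given as a description.

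Spliceosomal RNA was the other structured component. Places that resemble U2 RNA, which pairs with the branch site of introns, took 0.872%, 0.675% and 1.098% of tags in Controls 1, 2 and 3, with 0.0864% to 0.827% in the factor libraries. U1-like places took 0.0429%, 0.164% and 0.424% and U6-like places 0.0143%, 0.097% and 0.467%. Both were lowest in Control 1 and highest in Control 3, whereas the U2 share was not. Places like 7SK RNA, which holds the elongation factor P-TEFb inactive, stayed between 0.129% and 0.174%. Places like Y3 RNA, a partner of the Ro protein, ran from 0.0572% in Control 1 to 0.641% in Control 3.

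Single small RNA genes carried many of these tags. RNU2-2P had 28, 99 and 78 tags in Controls 1, 2 and 3 and RNU2-59P had 22, 81 and 79. The U4 gene RNU4-2 had 3, 18 and 11, and SNORD118, which encodes the U8 snoRNA needed for 28S processing, had 5, 27 and 6. Only uniquely mapped reads were kept, so reads identical between copies are missing and the tags of U2 genes can be undercounted. The split between U2 genes is therefore uncertain. Of the RNAs made by RNA polymerase III, the vault RNA VTRNA1-2 had 24, 25 and 10 tags, RNY5 had 13, 36 and 25, RN7SK had 9, 49 and 31, and RN7SL2, a 7SL gene for the RNA of the signal recognition particle, had 1, 2 and 0. The vault RNA was thus as high in tags in the shallow Control 1 as in Control 2. 7SL RNA has near-identical gene copies and was not among the RNAs searched, so its share was not measured.

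Genes annotated as small structured RNA took 3.63%, 3.11% and 4.66% of the tags of Controls 1, 2 and 3, a mean of 3.80% ± 0.788 (SD, n = 3) against a mean of 2.00% in the 9 factor libraries (0.490% to 3.58%). In each replicate number the Control lay above the 3 factor libraries. The difference of 1.79 percentage points gave p = 0.0182 in a two-sided exact permutation test over all 12 libraries and 0.0545 after Benjamini-Hochberg adjustment over 12 measures. Without rRNA-like places the difference was 1.47 points (exact permutation p = 0.0909). At like depth the values were close, 3.63% in Control 1 and 3.58% in Nxf1 1, and 3.11% in Control 2 and 2.53% in Chtop 1.

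Introns held the largest share of the background in each Control library. Intron tags were 42.5%, 56.0% and 47.1% of Controls 1, 2 and 3, a mean of 48.5% ± 6.88 (SD, n = 3), against 32.5% in the factor libraries (17.8% to 46.6%). Each Control lay above the 3 factor libraries that share its replicate number: 42.5% against 26.5% to 27.8% in replicate 1, 56.0% against 27.9% to 42.4% in replicate 2, and 47.1% against 17.8% to 46.6% in replicate 3. The difference of 16.03 points gave an exact permutation p = 0.0182 (two-sided, where 220 arrangements allow no less than 0.00909), which was 0.0545 after adjustment over the 12 measures. When libraries were permuted only within replicate numbers, the exact permutation p was 0.03125, the smallest that 64 arrangements allow, before adjustment. In pairs of like depth the share was 42.5% in Control 1 and 27.4% in Nxf1 1, and 56.0% in Control 2 and 26.5% in Chtop 1. Control 2 and Chtop 1 also differ in HiSeq lanes, and the part of depth was not tested.

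The 3′ UTR share moved the other way. It was 11.96%, 7.39% and 4.85% in Controls 1, 2 and 3, a mean of 8.07% ± 3.60 (SD, n = 3), against 17.3% in the factor libraries (7.59% to 29.8%). The Control was below the 3 factor libraries in each replicate number, a difference of -9.28 points (exact permutation p = 0.0182, adjusted 0.0545, and 0.03125 within replicate numbers). Coding sequence took 20.8%, 7.72% and 3.85% of Control tags against 22.3% in the factors (7.62% to 29.5%), an exact permutation p of 0.0727 that adjusts to 0.123. Controls 1 and 2 thus lay inside the range of the factor libraries in coding sequence and Control 3 lay below it. The spread between Control libraries was larger than for any other region except the tags outside transcripts. The plot of shares by region sets out these values.

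**Figure D5:**
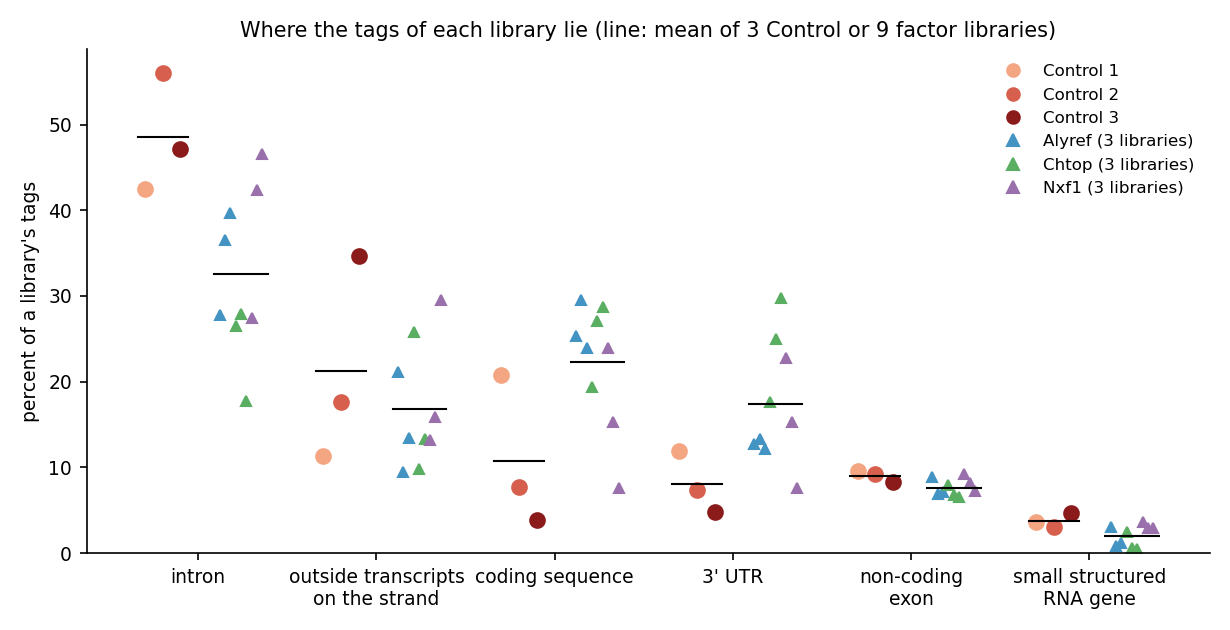
Percent of a library's tags (vertical axis) in each kind of region or gene (horizontal axis) for Controls 1, 2 and 3 (circles, left of each pair) and the 9 factor libraries (triangles), with lines at the 2 means. In introns the 3 Controls lie between 42.5% and 56.0% around a mean of 48.5%, and in 3' UTRs between 4.85% and 11.96% around 8.07%.

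The sequence around Control tags was poorer in G and C. In the 51 nt around the tagged base the G+C content was 43.7%, 42.0% and 42.1% in Controls 1, 2 and 3, a mean of 42.6% ± 0.962 (SD, n = 3) against 44.6% in the factor libraries (43.3% to 45.8%). The difference of -1.98 points gave an exact permutation p of 0.0182 (adjusted 0.0545). Windows of 11 bases with at least 6 U held 30.5%, 34.7% and 34.9% of Control tags and 22.0% to 32.7% of factor tags, so the Controls and Nxf1 3 overlapped. The part that the intron share has in this difference was not tested.

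None of the 12 measures passed 0.05 after adjustment. The lncRNA share was 5.52%, 5.92% and 6.80% in Controls 1, 2 and 3 against 5.11% in the factors (exact permutation p = 0.0455, adjusted 0.0909, and 0.0625 within replicate numbers). Intron tags over 1 kb from an exon were 66.2%, 63.7% and 71.2% against 61.1% (exact permutation p = 0.0818, but 0.03125 within replicate numbers, where the Control was highest in each). After drawing 6998 tags from every library, 1.115%, 1.097% and 1.98% of Control tags shared their base with another tag. The mean of the factors was 0.457% (exact permutation p = 0.0273, adjusted 0.0655, and 0.0625 within replicate numbers), with a range of 0.0457% to 1.27%. Nxf1 1 and Chtop 1, of depth like Controls 1 and 2, were the highest factor libraries, at 1.27% and 0.925%. Nxf1 1 thus lay above Controls 1 and 2. Tags in the 50 most tagged genes were 7.47%, 6.77% and 6.10%, against 6.42% (exact permutation p = 0.618).

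Intronic background was spread thinly over many introns. A Control tag was found in 20127 of 239088 introns of canonical transcripts. Of these, 13024 had 1 tag and held 32.5% of the intron tags, 78 had 20 or more and held 7.14%, and 622 had a tag in all 3 libraries and held 16.8%. Introns of 50 to 200 kb took 26.9%, 23.7% and 27.2% of the intron tags of Controls 1, 2 and 3 (17.3% to 25.5% in the factor libraries) and make up 32.3% of the intron length. Introns of 1 to 10 kb took 31.7%, 34.1% and 29.3% (31.2% to 43.6%) and make up 22.8% of the length. First introns took 30.0%, 27.8% and 29.8%, close to their 29.5% of the length.

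The introns with the most tags were of 2 kinds. In intron 1 of PDE3A, a cyclic nucleotide phosphodiesterase, all of the 19, 92 and 67 tags lay at places like rRNA. The same was true of intron 4 of HFM1, a meiotic helicase, with 10, 102 and 63 tags, of intron 4 of PHKB, a phosphorylase kinase subunit, with 6, 53 and 43, and of intron 1 of PID1 with 4, 50 and 40. None of the tags lay at such places in intron 4 of SLIT2, which encodes an axon guidance ligand, with 8, 41 and 24 tags, in intron 1 of the ephrin gene EFNA5 with 6, 42 and 24, or in intron 1 of the nuclear receptor gene RORA with 8, 25 and 14. In the last 3 the tags were spread, with at most 2, 3 and 1 tags at a base, and the introns are 199, 243 and 550 kb long. The tags of the first kind thus lay at copies of rRNA and those of the second were spread along a long intron.

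Long genes held more of the Control tags than of the factor tags. The 323 protein-coding genes over 500 kb took 4.82%, 5.20% and 5.34% of the tags of Controls 1, 2 and 3, against 3.43% on average in the factor libraries (2.398% to 4.60%), so that the groups did not overlap. Of 151 tested against the mean of the 3 factors (edgeR quasi-likelihood test, called at an adjusted p under 0.05), 1 was called higher and none lower in Control, where 0.123% of all 3242 genes tested were called in each direction. They had a median log2 fold change of 0.64 beside -0.17 over all genes tested. Examples were AUTS2 with 8, 50 and 40 tags, FHIT, which spans a common fragile site, with 6, 35 and 45, PTPRG with 7, 40 and 29, and WWOX, at another fragile site, with 6, 33 and 24. None of these 4 passed the test.

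The genes with the largest mean share of the background were a mixture of these components. ANKRD30BL led with 25, 249 and 248 tags in Controls 1, 2 and 3 (5226 CPM ± 1588, SD, n = 3), and 98.5% of its tags lay in places like rRNA. The 5.8S pseudogene RNA5-8SP2 had 27, 64 and 70 tags, all rRNA-like. The nuclear lncRNAs NEAT1, the scaffold of paraspeckles, and MALAT1, a component of nuclear speckles, had 19, 65 and 49 tags and 8, 109 and 61 tags, and none of these lay in a copy of an abundant RNA. ZNF711, a zinc finger transcription factor gene on chromosome X, had 15, 68 and 20 tags, of which 38.8% were intronic. It was the only 1 of the 12 leading genes whose Control share lay below the factor mean, with 1384 CPM against 3030.

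Against the pooled reference few genes differed. Of the 3242 genes with enough tags, 4 were called higher in Control and 4 lower by the same test, each 0.123% of those tested, and 516 had an unadjusted p under 0.05. The median log2 fold change over all tested genes was -0.17, which became -0.02 under RLE scaling, and changes are to be read relative to it. With the replicate number as a block 42 genes were called higher and 21 lower, and all 8 were among them. With the set of HiSeq lanes as the block, 10 were called higher and 7 lower, again with all 8. DESeq2 called 5 of the 8 and gave MRPL45 no adjusted p, and without a filter 5 of the 8 were called, RNU2-64P being lost in both. SMG1 was lost without Chtop 3 and without fixed-offset bases. Without Control 2, Control 3 or Nxf1 2 no gene passed.

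Of the genes called higher, 2 resembled U2 RNA along all their Control tags. RNU2-64P, a U2 pseudogene, had 1, 17 and 26 tags (405 CPM on average against 171 in the factors, log2 fold change 2.04, edgeR adjusted p = 0.0338). LINC00910, a lncRNA gene, had 2, 11 and 20 tags (log2 fold change 2.02, edgeR adjusted p = 0.0338). The other two were intronic: MRPL45, a mitochondrial ribosome gene, had 1, 12 and 4 tags, all in introns (log2 fold change 3.11, edgeR adjusted p = 0.0338), and TENM1, a teneurin gene over 500 kb long, had 3, 18 and 15, of which 91.7% were intronic (log2 fold change 1.86, edgeR adjusted p = 0.0386). The CPM of TENM1 was 429, 388 and 408 in Controls 1, 2 and 3, and 0 to 172 in the factor libraries. The Control 1 value rests on 3 tags, and 0 tags there would allow as much. The 0 was in Nxf1 1, where 0 tags allows up to 370 CPM.

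The genes called lower had few Control tags, and these were mostly exonic. KMT2D, a histone H3 lysine 4 methyltransferase gene, had 3, 5 and 4 Control tags, 91.7% of them in coding sequence (215 CPM against 788, log2 fold change -2.21, edgeR adjusted p = 0.0338). SMG1, the kinase of nonsense-mediated decay, had 3, 9 and 1 (217 CPM against 757, log2 fold change -2.21, edgeR adjusted p = 0.0376). TNFRSF10B, a death receptor gene, had 0, 2 and 0 tags, and PPP1R15B, a phosphatase subunit that reverses eIF2 alpha phosphorylation, had none in any Control library and 49.3 to 494 CPM in the factors. For PPP1R15B, 0 tags allows up to 429, 64.7 and 81.5 CPM in Controls 1, 2 and 3, so Control 1 alone would not exclude the levels of most factor libraries.

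The chosen gene lists described the background as follows. The 3352 snRNA, snoRNA and scaRNA genes took 2.04% ± 0.480 (SD, n = 3) of Control tags against 0.981% in the factors, with 1 of 25 tested called higher and a median log2 fold change of 1.27. Of 11 RNA polymerase III RNAs 3 were tested and of 528 rRNA genes and pseudogenes 4 were, with medians of 1.06 and 1.66 and no call. The 39 abundant lncRNAs took 0.515% ± 0.102 (SD, n = 3) against 0.375%, with a median of 0.43 over 12 tested and no call. Cytosolic ribosomal protein genes (17 tested) and abundant mRNAs (15 tested) had medians of -0.32 and -0.48 and no call, and took 0.297% and 0.215% of Control tags. Replication-dependent histone genes had 3, 10 and 12 tags and none was tested. These medians stand beside -0.17 over all genes, and small RNA genes and long genes were on the higher side of it. The calls stand beside 0.123% of all 3242 genes tested in each direction. At that share, lists of this size would mostly have no call.

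Genes of the TREX complex and its partners gave little background. They had 6, 28 and 12 tags in Controls 1, 2 and 3, 0.0596% ± 0.0266 (SD, n = 3) against 0.099% in the factors. THOC2 held 2, 15 and 8 of the Control tags, NXF1 2, 2 and 0, and CHTOP 0, 1 and 2. Of 7 markers of HEK293 cells, 4 had a Control tag, led by VIM with 0, 7 and 1, and NEFL, NEFM and KRT18 were at 0. At this depth the labels of cell type could not be checked further.

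Outside genes the background was a few hot places and a thin layer. Tags outside genes on both strands were 7.47%, 11.1% and 20.1% of Controls 1, 2 and 3, a mean of 12.9% ± 6.52 (SD, n = 3) against 10.1% in the factors (exact permutation p = 0.355), and without Control 3 the difference turned to -0.797 points. Strand-specific bins of 10 kb were filled with all tags that had no gene on their own strand, so they include tags antisense to genes. Of 15645 bins with such a Control tag, 14047 had 1 tag, with 64.6% of the binned tags, and 50 had 10 or more, with 17.2%. The leading bin, chr16:33960001-33970000 on the plus strand, had 43, 401 and 311 tags, 96.6% of them rRNA-like. It was followed by chr21:9820001-9830000 on the plus strand with 40, 283 and 140 and chr5:71140001-71150000 on the plus strand with 23, 94 and 92, both wholly rRNA-like. In the bins chr2:133030001-133040000 on the minus strand (9, 149 and 110 tags) and chr19:24180001-24190000 on the minus strand (7, 105 and 98), 29.1% and 26.7% of tags were rRNA-like.

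Tags antisense to genes went with the tags outside genes. They were 3.89%, 6.56% and 14.5% in Controls 1, 2 and 3, against 6.73% in the factors (exact permutation p = 0.482), and the difference without Control 3 was -1.51 points. Control 3 was also highest in repetitive sequence: 27.9% of its tags lay where the surrounding 14-base words occur at least 500 times in the genome (median), against 9.92% in Control 1 and 15.0% in Control 2. Among tags with no gene on their own strand that share was 16.2%, 29.0% and 43.0%, and in introns 17.2%, 15.8% and 26.0%. The factor library with the highest share was Nxf1 3, at 25.6%. Tags more than 10 kb past a gene end made up 55.5%, 62.4% and 76.2% of the tags outside transcripts, highest in Control 3.

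Of 87 such bins with enough tags, none was called higher in Control (0% of those tested) and 2 were called lower (2.3%), with 23 at an unadjusted p under 0.05. The median log2 fold change over these bins was -0.80, and the direction of the calls is to be read relative to it. DESeq2 called 2 higher and 5 lower. Both called bins were nearly empty in Control: chr6:28860001-28870000 on the minus strand had no Control tag in any library and 11.6 to 247 CPM in the factors, and chr19:57810001-57820000 on the plus strand had 0, 1 and 0 tags and 84.1 to 321 CPM. With the replicate block 1 bin was called higher and 7 lower.

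Agreement between the 3 Control libraries was low at single bases, and at genes it varied with the pair and the measure. At 6998 tags per library, 0.972% of Control 1 bases were shared with Control 2 and 1.06% with Control 3, and 1.09% between Controls 2 and 3. Counting neighbours within 15 nt, 5.91% to 6.04% were shared, and within 100 nt 7.89% to 8.41%. By comparison Control 1 shared 2.36% of its bases with Nxf1 1, more than with either other Control, and 4 of 27 pairs of a Control and a factor library, all of them with Nxf1 1 or Chtop 1, shared more than the lowest pair of Controls. Genes with a tag were shared at 42.8% for Controls 1 and 2, 32.3% for Controls 1 and 3 and 33.3% for Controls 2 and 3, and 33.4% to 47.4% with factor libraries. The Controls were thus no more alike in their genes than they were like the factor libraries.

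Over all depths, 12431 genes had a Control tag, 2233 of them in all 3 libraries with 50.3% of the gene tags, 4057 in 2 and 6141 in 1. Across those 2233 genes, which are not independent replicates, Spearman's rho of CPM was 0.377 for Controls 1 and 2, 0.263 for Controls 1 and 3 and 0.522 for Controls 2 and 3. Over genes with 5 or more tags in a pair together (2621, 1516 and 3608 genes), it was 0.107, -0.105 and 0.109 for the same pairs. That rule lowers rho, since a gene with few tags in 1 library needs more in the other to enter. These values therefore cannot measure agreement. With the mean of the factor libraries, over the 2233 genes, rho was 0.443, 0.693 and 0.471 for Controls 1, 2 and 3, and the points share the low counts of the Controls. Of the 50 genes with the most tags in each library, 27, 17 and 29 were shared in the same 3 pairs (54%, 34% and 58% of each list). Only 248 genes had a Control tag and no factor tag, with 265 tags in all.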

How the data were processed

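Tags per crosslinked base of 12 iCLIP libraries were analysed, the 3 Control libraries in depth and the 9 factor libraries as a reference. The deposited tables hold counts of tags per base. Per the labels and the study's methods, the authors removed phiX reads with Bowtie 1.1.2, handled barcodes with UMI-tools 0.5.3, trimmed adapters with Reaper, aligned to hg19 with STAR 2.4.2a and Ensembl splice junctions, kept uniquely mapped reads, merged lanes, counted each barcode once per position, and assigned a tag to the base before the read or to a deletion within it. Unique mapping removes reads of identical copies, so tags at repeats and rRNA copies can be undercounted, and a finite set of barcodes limits the tags at a base.

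Bases were assigned on the strand to GENCODE 44 gene models lifted to GRCh37, whose Ensembl canonical transcripts gave the introns. A base in over 1 gene was left out of the gene test. rRNA and spacer sequences, U1, U2, U4, U5, U6, 7SK and Y RNAs and the mitochondrial genome were aligned to the chromosomes with blastn 2.17.0, and a base within 10 nt of an alignment of at least 50 nt (spacers 100 nt) and 80% identity was called like that RNA. The 80% limit, after 85% had missed copies with many tags, and the definition of fixed-offset bases (coincidences at an offset of up to 12 nt at least 1.25 times those at both neighbouring offsets) were chosen after seeing the data. The share of masked repeats could not be computed from this reference and was replaced by the copy number of 14-base words, so 12 measures were tested.

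Per-library shares were compared with two-sided exact permutation tests (Python 3.11.15, scipy 1.17.1), adjusted over the 12 measures. Genes and 10 kb bins were tested with edgeR 4.0.16 (quasi-likelihood test, TMM, filterByExpr, Benjamini-Hochberg adjustment) in R 4.3.3, and DESeq2 1.42.0 was an alternative. The gene test was also run on counts simulated from its own fit, and that outcome is not reported here. Per the labels, libraries of a replicate number shared their HiSeq lanes, but replicates 1 and 3 were both on lanes 7 and 8 and replicate 2 on lanes 5 and 6, and replicate 3 has no MiSeq run. The number therefore does not mark 3 separate sequencing batches, and permutation or blocking within sets of lanes was added after seeing the data. Across genes, same-number deviations from the group means correlated between -0.083 and 0.123 in pairs with a Control. Nothing in the labels says that replicates came from separate cultures, so p-values measure the spread between these libraries, which may be technical. Intervals and floors cover counting error only.

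Named genes were the 12 with the largest mean Control share, up to 10 called genes in each direction and the 2 to 4 members of each list with the most Control tags. Named bases were the 8 with the most tags in at least 2 Control libraries and the 3 with the most in each library. Bases on chromosomes 8 and Y and in XIST were left out of that ranking. The members, lists and tests were chosen with earlier results of these data known. There were 0 unused columns of per-sample values. XIST and Y-linked genes were left out. The list of markers of other cell types is not reported here.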

Additional observations from a re-analysis of the deposited data

How the results depend on the processing

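Of the other settings tried for the 12 shares, 58 of 66 kept the direction and the side of the unadjusted threshold. With permutation within replicate numbers (the replicate block, which is finer than the lanes) the lncRNA difference (0.973 points) and the multi-tag difference (0.939 points) had p = 0.0625 by exact permutation, and intron tags over 1 kb from an exon (5.98 points) had p = 0.03125. Within sets of HiSeq lanes the lncRNA difference (0.973 points) had an exact permutation p = 0.0536, and no p below 0.0179 is possible. Leaving out fixed-offset bases gave 0.880 points for lncRNA (exact permutation p = 0.0545), leaving out rRNA-like places gave 1.47 points for small structured RNA (exact permutation p = 0.0909), and leaving out replicate 1 of every group gave 1.30 points for the multi-tag share at 6998 tags and 3.98 points at 36804 tags (exact permutation p = 0.0714 in both, the smallest that these libraries allow). The cause of the other moves was not tested.

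Leaving out 1 library at a time gave differences of -0.797 to 5.53 points outside genes and -1.51 to 3.80 antisense, both negative only without Control 3. The ranges were 12.3 to 19.1 for introns, -16.5 to -8.03 for coding sequence, -11.2 to -7.67 for 3′ UTRs, 1.36 to 2.14 for small structured RNA, 0.611 to 1.254 for lncRNA, -0.126 to -0.0333 for pseudogenes, -2.53 to -1.68 for G+C, 3.89 to 7.64 for distant intron tags, 0.649 to 1.09 for multi-tag bases and 0.0133 to 0.750 for the 50 leading genes. With 2 Control libraries no p below 0.0364 is possible, and without Control 2 or Control 3 the intron difference had an exact permutation p of 0.0727.

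Genes called higher and lower, 4 and 4 as reported, were 13 and 4 under RLE scaling, 5 and 10 without a filter, 8 and 6 with DESeq2, 42 and 21 with the replicate block, 10 and 7 with HiSeq lanes as a block, 52 and 34 without replicate 1 of every group, and 0 to 40 and 0 to 35 on leaving out 1 library. Bins called, 0 and 2, were 2 and 5 with DESeq2, 2 and 5 with each base counted once, 1 and 7 with the replicate block, 1 and 11 without replicate 1 of every group, 0 and 0 without a filter, and 0 to 1 and 0 to 7 on leaving out 1 library. The log2 fold change of AUTS2, not called, turned to -0.0126 without a filter. Settings with lane sets, without fixed-offset bases or rRNA-like places, and without replicate 1 (other than at 36804 tags) were chosen after seeing the data. Depth limits single genes: 0 tags in Control 1 allows up to 429 CPM.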

Other observations

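The host genes of snoRNAs were a small part of the background. GAS5 had 1, 22 and 5 tags in Controls 1, 2 and 3 (log2 fold change 1.29, edgeR adjusted p = 0.158), SNHG1 had 0, 29 and 4 (1.54, edgeR adjusted p = 0.096), and ZFAS1 had 2, 1 and 1 (-0.64, edgeR adjusted p = 0.706). Control 2 held most of the tags of GAS5 and SNHG1. Among mRNAs of abundant proteins, the glycolytic enzyme ENO1 had 4, 15 and 10 tags, the splicing repressor HNRNPA2B1 had 1, 23 and 5, and GAPDH had 1, 4 and 3, and none of them passed the test.

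Annotated snRNA genes took 1.48% ± 0.542 (SD, n = 3) of Control tags, snoRNA genes 0.564% ± 0.197 (SD, n = 3), miRNA genes 0.112% ± 0.0117 (SD, n = 3) and rRNA pseudogenes 0.708% ± 0.249 (SD, n = 3). The factor libraries ranged from 0.0284% to 0.262% for snoRNA genes, below the Control mean. Non-coding exons took 9.56%, 9.26% and 8.36% of the tags of Controls 1, 2 and 3, and 5′ UTRs 3.84%, 1.94% and 1.16%.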
